A study of Mus musculus with 44 samples.

Results

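Lung macrophages sorted as MoAM, the label this field uses for monocyte-derived alveolar macrophages, were compared between D14 and D7 after bleomycin in mice that carried aged bone marrow. The members were 7 of the 44 samples in the series, 3 at D14 and 4 at D7. All 7 came from the lungs of young recipient mice, labelled Bl6, that had been transplanted with marrow from aged donors and then given bleomycin, which injures the lung and leads to scarring, through the trachea at 1 U/kg. The reference groups were MoAM of recipients of young marrow after the same injury, 3 at D14 and 4 at D7. The labels give no sex, no age in weeks or months, no donor of each library and no uninjured control, and nothing in them ties the libraries of 1 group to separate animals, so p-values measure the spread between libraries, which may be technical. Fewer cells of a type and less RNA per cell cannot be told apart in such bulk libraries.

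The columns were assigned to samples by their position in the deposited count table and not by the headers printed over them. Under that rule the 44 headers were sorted bytewise, and the sample named by the first sorted header was given to the first data column, and so on, which put D14 in columns 26 to 28 and D7 in columns 29 to 32. The printed headers named another population for every column (0 of 44 in agreement), and the 7 columns used here carry headers of AM samples. Several genes of cell lineage went with the positions, and others did so less clearly. Siglecf, a sialic acid receptor on resident alveolar macrophages, ran from 73.6 to 247 CPM in the 13 columns placed as AM and from 7.03 to 33 CPM in the 14 placed as MoAM, and Ly6c2, a surface antigen of classical monocytes, from 603 to 1845 CPM in the 5 placed as monocytes and from 85.6 to 220.0 CPM in MoAM. By the correlation of log2 CPM, the nearest other column was of the same population for 41 of 44 columns under the positions and for 29 of 44 under the headers. It was of the same population, day and marrow age for only 23 of 44 under the positions and 16 of 44 under the headers. C1qa ran from 359 to 3417 CPM in the 6 columns placed as CD25pos, which spans the 1498 to 2588 CPM of the MoAM columns, and the T cell gene Cd3e from 8.51 to 189 CPM in CD25pos and from 0 to 29 CPM in monocytes. These genes bear on the population alone. The day and the marrow age of each column rest on the rule and were not checked by any gene, and the day contrast holds only if the rule does.

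Monocytes that enter the injured lung become macrophages over days to weeks, losing monocyte genes such as Ly6c2 and taking on genes of tissue macrophages. Cells of this origin are known in lung fibrosis for a programme of secreted and matrix-directed proteins, among them osteopontin (Spp1) and the elastase Mmp12, and for growth factors that act on fibroblasts. With time such cells also take up surfactant lipid and cell debris, and some come to resemble resident alveolar macrophages.

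Levels of lineage genes describe the labelled identity and do not test it, since such genes supported the position rule. C1qa, a chain of the complement protein C1q made by tissue macrophages, was at 2067 to 2357 CPM in the D14 libraries and 1644 to 1864 CPM in the D7 libraries, counted over each library's total, and Cd3e of T cells did not exceed 4.45 CPM in any of the 7. Depth differed between the days without overlap: totals were 5744232 to 9921734 counts at D14 and 485090 to 3453587 at D7, with 14849 to 15639 and 11803 to 14244 genes detected. Levels below are CPM, counts scaled by TMM library size, n = 3 at D14 and n = 4 at D7, with the SD across libraries after ±. A gene was called when its adjusted p, from edgeR's quasi-likelihood test, p-values adjusted by Benjamini-Hochberg across all tested genes, was below 0.05.

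MoAM of aged marrow differed widely between D14 and D7. Of 10690 genes tested, 1540 were called (14.4%), 750 higher at D14 (7.02%) and 790 lower (7.39%). The D14 libraries lay wholly above the D7 libraries in 1440 genes (13.5%) and wholly below them in 1434 (13.4%). Matrix proteases, complement, scavenger receptors and interferon-stimulated genes stood among the genes that rose, and genes of cell division, ribosomes, mitochondria, chemokines and endothelium among those that fell. The number called was 985 without D14 library 2 and 949 without D14 library 3. It was 728 after the counts of the 7 aged libraries had been thinned to their smallest total, of which 692 were among the 1540, and 27 when all 44 libraries of every population shared 1 estimate of the spread.

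Gene span moved with the calls. Among 10616 tested genes with a span in RefSeq (GRCm38.p6), split into 5 bins of equal size, 3.11% were called higher and 14% lower in the bin of the shortest genes, whose median span was 4.95 kb. In the bin of the longest genes, with a median span of 134.6 kb, 15.4% were called higher and 3.96% lower. The median log2 fold change went from -0.18 in the shortest bin to 0.14 in the longest. In young marrow it went the other way, from 0.06 to -0.10. Several lists below also had median spans under the 26.3 kb of all tested genes. With more falls than rises these were inflammatory cytokines and chemokines (4.24 kb), unfolded protein response (6.19 kb), growth arrest (6.32 kb) and MHC class II (9.81 kb), among others. MHC class I (5.18 kb) and complement (11.4 kb) were short and rose in part, while endothelial markers (42.9 kb) were long and fell. The part of span in the change of any single gene or list was not tested.

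**Figure D1:**
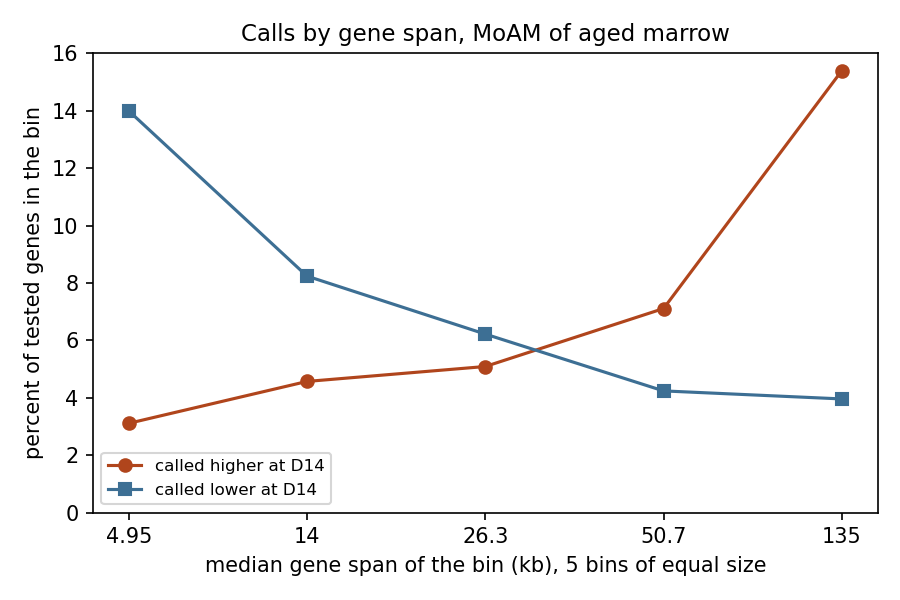
Percent of tested genes called higher (circles) or lower (squares) at D14 in MoAM of aged marrow, by gene span in 5 bins of equal size, labelled on the horizontal axis with the median span in kb. Calls of higher genes climb from 3.11% to 15.4% across the bins, and calls of lower genes decline from 14% to 3.96%.

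Of 4 genes used as markers of these cells, Mmp12, Spp1 and C1qa rose and Ly6c2 was not called. Spp1 did not set MoAM apart from AM under the positions. Over library totals it ran from 985 to 15952 CPM in the 13 AM columns and from 1714 to 8974 CPM in the 14 MoAM columns. Mmp12, macrophage elastase, was at 1945, 1552 and 1989 CPM at D14 and 526, 493, 482 and 461 CPM at D7. Every D14 library lay far above every D7 library (log2 fold change 1.90 ± 0.12 SE, adjusted p = 3.5e-16). Spp1, osteopontin, was at 6535, 6382 and 6056 CPM at D14 and 3479.7, 3427, 2855 and 3420.3 CPM at D7. The D14 values lay close together and well above all D7 values (log2 fold change 0.94 ± 0.11 SE, adjusted p = 1.5e-08). In young marrow Spp1 was at 8949, 9232 and 7389 CPM at D14 and 2679, 2853, 2258 and 1743 CPM at D7, a larger change (difference aged minus young -0.90 ± 0.16 SE on the log2 scale, adjusted p = 1.4e-04). C1qa was at 2202, 2274 and 2022 CPM at D14 and 1750.3, 1712, 1652 and 1942 CPM at D7, with no overlap but a small step (log2 fold change 0.30 ± 0.10 SE, adjusted p = 0.027), and its call was lost when any 1 of 5 of the 7 libraries was left out (D14 library 1 or 2, D7 library 1, 2 or 3; adjusted p = 0.058 to 0.15). Ly6c2 was at 158, 92.7 and 132 CPM at D14 and 98, 91.7, 88.3 and 121 CPM at D7, so that the days overlapped, and it was not called (log2 fold change 0.33 ± 0.15 SE, adjusted p = 0.15), except without D14 library 2, where it was (adjusted p = 0.029).

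**Figure D2:**
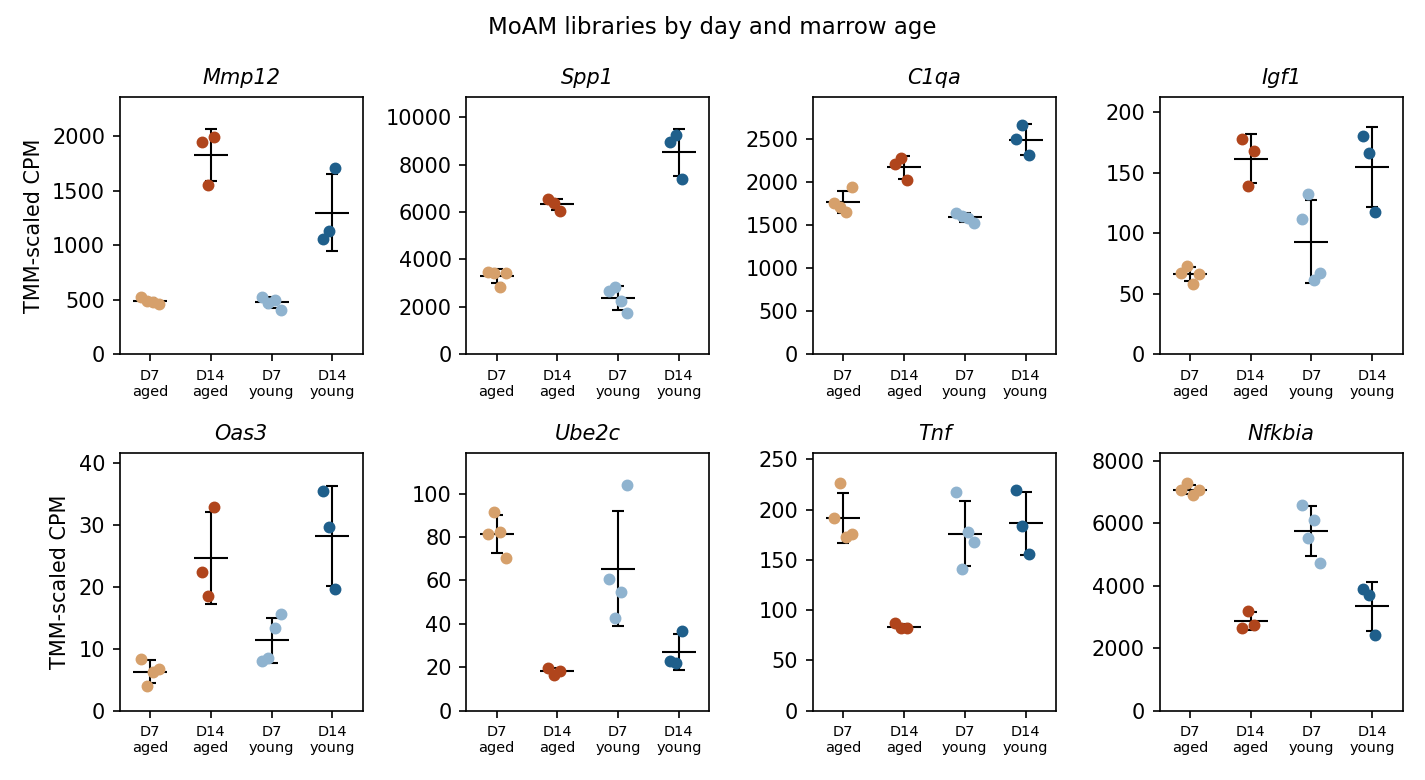
Levels of 8 genes in each MoAM library, in TMM-scaled CPM on a linear axis from 0, by day and marrow age, with points for libraries and black marks for the group mean with its SD. In aged marrow the D14 points of Mmp12, Spp1, C1qa, Igf1 and Oas3 lie above all D7 points, and those of Ube2c, Tnf and Nfkbia lie below them.

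A fixed panel of 25 macrophage genes, with the markers above among them, rose in part. Of 24 tested, 9 rose and 2 fell. Over all genes 7.02% rose and 7.39% fell, so the falls made a share near that of all genes. Fn1, fibronectin, was at 4158 ± 462 against 2572 ± 110.4 CPM (log2 fold change 0.69 ± 0.10 SE, adjusted p = 1.6e-06). Apoe, a lipid carrier, was at 4428 ± 355 against 2981 ± 180.4 CPM, and Cd9, a tetraspanin found on macrophages around lung scars, at 1387 ± 16.2 against 1101 ± 118 CPM; the call on Cd9 was lost without D14 library 2 (adjusted p = 0.075) and without D7 library 2 or 3. Cx3cr1, the fractalkine receptor carried by monocyte-derived macrophages, rose from 312 to 523 CPM. Siglecf rose (28.6 against 10.8 CPM) while still far below the AM columns. H2-Aa of MHC class II and the monocyte attractant Ccl2 fell, both by less than 0.5 on the log2 scale, and both calls depended on single libraries. The call on H2-Aa was lost without D14 library 1 or 3 or D7 library 1 or 3 (adjusted p = 0.051 to 0.20), and that on Ccl2 without D14 library 2 or 3 or D7 library 2 (adjusted p = 0.073 to 0.086). Not called were Ccr2 (753 against 921 CPM), Arg1 (214 against 264 CPM), Trem2 (197 against 189 CPM), Gpnmb (539.6 against 554 CPM), Fabp5 (244 against 305 CPM), Mrc1 (587 against 477 CPM), Il1b (2135 against 1963 CPM), Pdgfb (51.2 against 63.1 CPM), Tgfb1 (75.9 against 78.7 CPM), Pparg (57.8 against 41.9 CPM), Car4 (55.5 against 68.1 CPM) and Fabp4 (31.8 against 25.8 CPM). Fabp5 was called without D7 library 2 (adjusted p = 0.046). Marco was too low to be tested.

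Proteases and other matrix genes leaned upward. Of 32 tested genes of the extracellular matrix and its proteases, 12 rose and 3 fell, with a median log2 fold change of 0.30 against -0.02 over all genes tested. Besides Mmp12 and Fn1, the cysteine protease Ctsl was at 1233, 1231 and 1183 CPM at D14 and 718, 635, 595 and 751 CPM at D7, without overlap (log2 fold change 0.85 ± 0.11 SE, adjusted p = 3.3e-08). Adam17, the sheddase that releases TNF and growth factor precursors, rose from 179 to 291 CPM. Mmp13, a collagenase, was lower in level, at 32, 16.7 and 30.8 CPM at D14 and 4.17, 3.35, 8.83 and 8.15 CPM at D7. Its lowest D14 library was above its highest D7 library (log2 fold change 2.01 ± 0.36 SE, adjusted p = 3.4e-05). The 3 that fell were Ctsk (145 against 227 CPM), a collagen-degrading protease, and the matrix proteins Sparc (95.8 against 135 CPM) and Timp3 (78.3 against 113 CPM), an inhibitor of metalloproteases. The call on Sparc was lost without D14 library 2 or 3 or D7 library 4 (adjusted p = 0.066 to 0.10), and that on Timp3 without D14 library 1 or 2 or D7 library 3 or 4 (adjusted p = 0.055 to 0.15). After thinning, 7 matrix genes rose and 1 fell.

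Growth factors moved gene by gene. Of 20 tested genes for growth factors and their release, 3 rose and 2 fell (median log2 fold change -0.10). Over all genes 7.02% rose and 7.39% fell. Igf1, a growth factor for fibroblasts and epithelium, was at 178, 139 and 168 CPM at D14 and 66.8, 72.7, 58.3 and 66.7 CPM at D7. The lowest D14 library was well above the highest D7 library (log2 fold change 1.28 ± 0.17 SE, adjusted p = 1.4e-07). Pdgfc, a platelet-derived growth factor, rose from 38.7 to 65.7 CPM, and Ltbp3, which holds latent TGF-beta, rose at a low level (25.5 against 12.6 CPM), a call lost without D14 library 2 or D7 library 4 (adjusted p = 0.10 and 0.14). Gdf15, a stress-induced member of the TGF-beta family, fell (98.9 against 199.99 CPM), as did Vegfa (42.5 against 63.7 CPM), whose call was lost when 1 of 5 libraries was left out, D14 library 1, 2 or 3 or D7 library 3 or 4 (adjusted p = 0.054 to 0.19). In the list of 32 genes linked to macrophages of lung fibrosis, 7 rose and 4 fell, with a median of -0.06. Those that fell were the galectin Lgals1 (469 against 898 CPM), Syngr1, Ctsk and the chemokine Cxcl16 (293 against 424 CPM).

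Many interferon-stimulated genes rose. Of 44 tested, 17 rose, 1 fell and 38 had a positive fold change, with a median log2 fold change of 0.59. Trim30a, an interferon-induced ubiquitin ligase family member, was at 219.7, 211 and 241 CPM at D14 and 100.1, 114, 116 and 125 CPM at D7, and Slfn5, of the Schlafen family, at 172, 166 and 191 CPM at D14 and 96, 91.7, 81.3 and 98.6 CPM at D7. Neither overlapped between days (log2 fold change 0.95 ± 0.13 SE, adjusted p = 7.4e-08 and log2 fold change 0.93 ± 0.14 SE, adjusted p = 1.9e-06). The 2′-5′ oligoadenylate synthetases, which sense double-stranded RNA, were lower in level but changed more: Oas3 was at 22.5, 18.5 and 33 CPM at D14 and 8.34, 3.91, 6.18 and 6.64 CPM at D7, and Oas2 at 17, 15.2 and 16.5 CPM at D14 and 4.17, 5.03, 1.77 and 2.41 CPM at D7. All D14 values of both exceeded all D7 values, with log2 fold changes of 2.04 and 2.33. Slfn4, another Schlafen gene, went from 5.20 to 25.7 CPM. The gene that fell was the chemokine Cxcl10 (73.1 against 112 CPM), and its call was lost without D14 library 2 (adjusted p = 0.10). In young marrow 15 of the 44 rose and 1 fell, where 6.81% of all genes rose and 6.35% fell. After thinning of the aged libraries, 4 of the 44 were called higher and the median was 0.32.

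Promoters of 3 of these genes are shown because they carry the core of the interferon-stimulated response element, GAAA-NN-GAAA, where interferon-activated factors of the STAT and IRF families are known to bind. Each run is the 300 bases from 250 before to 50 after the start in the RefSeq table (GRCm38.p6), 5′ to 3′ on the gene's strand, with every match on either strand in capitals. The windows are chr5:120777610-120777909, minus strand for Oas3, chr7:104465144-104465443, minus strand for Trim30a and chr11:82951852-82952151, plus strand for Slfn5.
Oas3: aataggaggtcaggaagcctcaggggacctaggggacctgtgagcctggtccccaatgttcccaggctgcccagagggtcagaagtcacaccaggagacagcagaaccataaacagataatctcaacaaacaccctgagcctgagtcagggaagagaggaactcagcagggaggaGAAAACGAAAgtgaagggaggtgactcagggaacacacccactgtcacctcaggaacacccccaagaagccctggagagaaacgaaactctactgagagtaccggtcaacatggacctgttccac
Trim30a: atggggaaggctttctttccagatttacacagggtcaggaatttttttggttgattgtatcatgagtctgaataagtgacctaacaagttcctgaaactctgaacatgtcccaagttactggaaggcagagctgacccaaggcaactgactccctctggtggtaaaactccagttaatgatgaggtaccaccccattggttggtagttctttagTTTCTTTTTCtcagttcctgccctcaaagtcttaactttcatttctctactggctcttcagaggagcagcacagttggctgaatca
Slfn5: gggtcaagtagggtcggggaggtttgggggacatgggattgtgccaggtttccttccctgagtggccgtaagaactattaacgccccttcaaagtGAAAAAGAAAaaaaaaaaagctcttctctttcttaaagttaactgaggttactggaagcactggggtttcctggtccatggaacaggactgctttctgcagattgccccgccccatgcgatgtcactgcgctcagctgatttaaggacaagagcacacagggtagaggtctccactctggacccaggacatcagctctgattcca
Of the 17 genes that rose, 12 had a promoter in that table and 9 of these held the core (75%). The core was also in 12 of the 21 promoter-matched interferon genes that were tested and did not rise, a set with Cxcl10 in it (57.1%), and in 3.99% of all 27025 genes of the table.

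Complement and uptake genes rose in part. Among 14 tested complement genes 6 rose (median 0.31) and 0 fell (2 at an unadjusted p below 0.05, 0 by DESeq2, 1 by limma voom). C4b, a component of the classical pathway, was at 42.2, 33.4 and 42.7 CPM at D14 and 6.26, 6.71, 7.95 and 8.15 CPM at D7, so the D14 libraries stood well apart from the D7 libraries (log2 fold change 2.38 ± 0.32 SE, adjusted p = 8.5e-08). The central component C3 rose from 43.5 to 83.6 CPM, the receptor C3ar1 from 198 to 277, and Itgax, the integrin chain CD11c, from 361 to 678. Among 21 genes for uptake of dying cells and scavenging, 9 rose (median 0.33) and 0 fell (0 at an unadjusted p below 0.05, 0 by DESeq2, 0 by limma voom). Mertk, a receptor for apoptotic cells, was at 311, 315 and 346 CPM at D14 and 169, 179, 176 and 156 CPM at D7. Each D14 library exceeded each D7 library (log2 fold change 0.93 ± 0.12 SE, adjusted p = 3.5e-08). The beta-glucan receptor Clec7a (2669 against 1615 CPM), the inhibitory receptor Sirpa (695 against 449.8 CPM) and the Fc receptor Fcgr4 (64.8 against 40.5 CPM) rose as well. The uptake count was 5 without D14 library 1 or without D7 library 3, and 6 after thinning, when 3 complement genes were called higher.

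Lysosome and lipid genes rose in part. Of 43 lysosome genes 13 rose and 6 fell (median 0.18). Besides Ctsl, those that rose included the proton pump subunit Atp6v0d2 (299 against 184 CPM), prosaposin Psap (3848 against 2523 CPM) and acid lipase Lipa (370.4 against 245 CPM). Those that fell included the membrane protein Laptm5 (2229.9 against 3023 CPM), Ctsh and Ctsk; Ctsd also fell, but this abundant macrophage protease was listed at only 1.84 against 14.3 CPM, so its value is uncertain. Of 32 lipid handling genes 6 rose (median 0.20) and 0 fell (2 at an unadjusted p below 0.05, 0 by DESeq2, 0 by limma voom). Lpl, lipoprotein lipase, was at 3420.2, 3376 and 3647 CPM at D14 and 1471, 1525, 1479 and 1576 CPM at D7. The days did not overlap (log2 fold change 1.20 ± 0.10 SE, adjusted p = 2.8e-14). The cholesterol exporter Abca1 (289 against 162 CPM) rose too. Of 23 genes of cholesterol synthesis and uptake, 0 fell (1 at an unadjusted p below 0.05, 0 by DESeq2, 1 by limma voom). Where 7.02% of all genes rose, 3 of this list did. Among these was Msmo1, a sterol oxidase of the synthesis pathway (98.1 against 71.5 CPM), whose call was lost without any 1 of the D14 libraries or without D7 library 3 or 4 (adjusted p = 0.054 to 0.17). The rises of that list numbered 1 without D14 library 1 or 2 or D7 library 4, under the replicate block and after thinning.

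Markers of resident alveolar macrophages rose in part. Of 23 tested, 9 rose and 1 fell (median 0.32). Those that rose included Siglecf, Lpl, Itgax, Atp6v0d2 and Kcnip4 (39.6 against 15.2 CPM). Ctsk fell, and Car4, Pparg and Fabp4 were not called. Marco, Fabp1, Ear6, Krt79, Krt19 and Cidec of the same list were too low to be tested. A further pair of lists was taken from the data: the 100 genes of smallest p among those above monocytes in AM of aged marrow at D7, and the 100 lower in AM. These libraries share no sample with the MoAM contrast. Of 93 tested AM genes 26 rose and 5 fell (median 0.21). Of 100 tested monocyte genes 30 rose and 17 fell (median 0.12), so genes of both ends were called higher more often than the 7.02% of all genes. Monocyte genes were also called lower more often than the 7.39% of all genes, and AM genes were not (5.38%). Among 13 classical monocyte markers 4 rose, with Plac8 from 141 to 287 CPM and the clotting factor chain F13a1 from 74.4 to 119, and S100a4 alone fell (1595 against 2494 CPM). The classical rises numbered 2 without D14 library 1 or 3 or D7 library 2, and after thinning. Among 8 nonclassical markers 4 rose, including the integrin chain Itgal (273 against 153 CPM), and Cd300e fell (11.7 against 24 CPM), a call lost when any library but D7 library 3 was left out (adjusted p = 0.072 to 0.21).

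**Figure D3:**
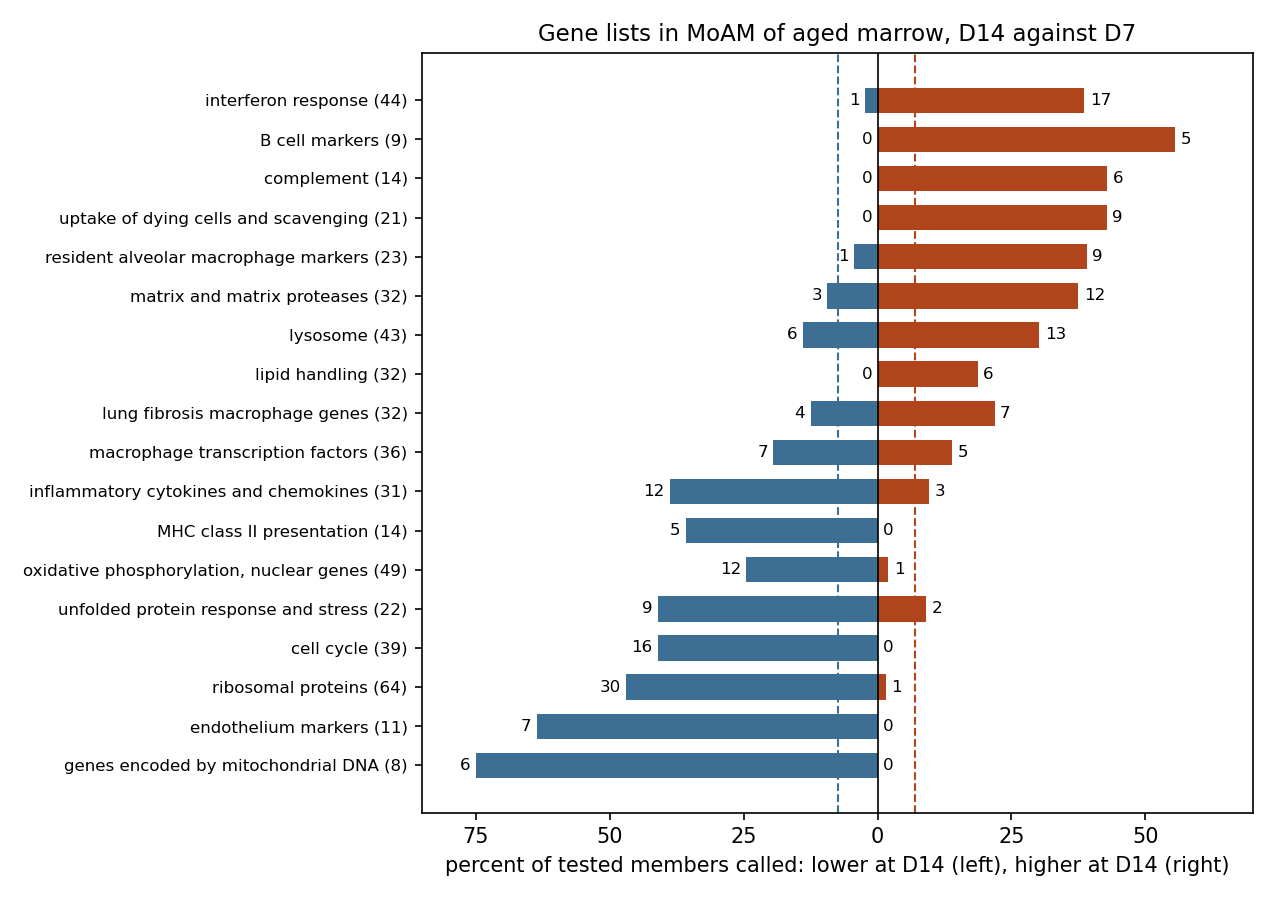
Percent of the tested members of 18 gene lists called lower (left, blue) or higher (right, red) at D14 in MoAM of aged marrow, with the number of tested members in brackets and the number called at each bar. Dashed lines mark the 7.39% lower and 7.02% higher among all genes tested. Interferon genes extend to the right (17 of 44), and cell cycle genes (16 of 39) to the left.

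Many genes of cell division fell. Of 39 tested cell cycle genes 16 fell, with a median log2 fold change of -0.73, and 0 rose (0 at an unadjusted p below 0.05, 0 by DESeq2, 0 by limma voom). Ube2c, an enzyme of the anaphase-promoting complex, was at 19.5, 16.2 and 18.4 CPM at D14 and 81.4, 91.7, 82.2 and 70.3 CPM at D7. All D14 libraries lay well below all D7 libraries (log2 fold change -2.17 ± 0.21 SE, adjusted p = 2.3e-11). Top2a, the topoisomerase of dividing cells, was at 61.9, 70.03 and 51.4 CPM at D14 and 121, 153, 175 and 125 CPM at D7, also without overlap (log2 fold change -1.24 ± 0.16 SE, adjusted p = 6.0e-08). The survivin gene Birc5 (51.7 against 118 CPM) and the microtubule regulator Stmn1 (40.5 against 100.04 CPM) fell likewise. In young marrow 12 of these genes fell and 0 rose, also at an unadjusted p (median -0.63). By edgeR 0 of the 39 were called for a difference between marrow ages, 6 at an unadjusted p below 0.05, where 5.56% of all genes were called. The count in aged marrow was 10 without D14 library 3, and 6 after thinning.

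Promoters of Ube2c and Top2a are shown because they hold the cell cycle genes homology region, TTTGAA, an element known to restrict expression to late phases of the division cycle. The runs follow the same window and table as above, with matches on either strand in capitals: chr2:164769679-164769978, plus strand for Ube2c and chr11:99024140-99024439, minus strand for Top2a.
Ube2c: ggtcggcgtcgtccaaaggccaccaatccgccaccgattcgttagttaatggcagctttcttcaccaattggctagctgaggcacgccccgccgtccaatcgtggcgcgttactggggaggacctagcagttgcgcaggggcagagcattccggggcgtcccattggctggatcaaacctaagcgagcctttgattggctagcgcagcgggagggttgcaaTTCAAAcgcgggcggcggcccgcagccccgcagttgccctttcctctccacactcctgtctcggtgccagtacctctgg
Top2a: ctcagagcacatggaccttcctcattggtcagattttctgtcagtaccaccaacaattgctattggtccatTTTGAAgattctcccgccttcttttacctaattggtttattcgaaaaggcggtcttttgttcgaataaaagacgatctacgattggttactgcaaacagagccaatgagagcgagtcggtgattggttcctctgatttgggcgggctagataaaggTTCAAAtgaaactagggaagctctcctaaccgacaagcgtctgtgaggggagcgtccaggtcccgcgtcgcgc
Of the 16 genes that fell, 13 had a promoter in the table and 7 held the element (53.8%). Among the tested cell cycle genes that did not fall it was in 9 of 19 (47.4%), and among all genes of the table in 20.2%.

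Genes for making protein and energy fell in part. Of 64 ribosomal protein genes 30 fell and 1 rose (median -0.35). Examples were Rps2 (276 against 518 CPM) and Rps19 (616 against 1069 CPM), and Rpl5 rose (848 against 619 CPM), a call lost without D14 library 3 (adjusted p = 0.052). Single members are uncertain, since ribosomal protein genes have many near-identical copies and the handling of reads with several matches is not given in the sources used here. Of 49 nuclear genes of oxidative phosphorylation 12 fell, among them Sdhb of complex II (143 against 241 CPM) and Atp5b of the ATP synthase (288 against 417 CPM), and Ndufa4 rose (102 against 57.6 CPM). Both lists consist mostly of short genes, with median spans of 3.21 and 7.08 kb against 26.3 kb for all tested genes with a span. Of 28 genes of glycolysis and hypoxia 6 fell (median -0.20) and 0 rose (0 at an unadjusted p below 0.05, 0 by DESeq2, 0 by limma voom), with Hilpda, a lipid droplet protein induced by hypoxia, at 465 against 796 CPM. That count was 3 without D14 library 2, D14 library 3 or D7 library 4.

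Transcripts encoded by mitochondrial DNA were lower at D14. Of 8 tested, 6 fell (median -0.88) and 0 rose (0 at an unadjusted p below 0.05, 0 by DESeq2, 0 by limma voom). mt-Cytb, a subunit of complex III, was at 4127, 4212 and 3605 CPM at D14 and 9149.8, 8823, 8016 and 8448 CPM at D7. The highest D14 library was below every D7 library (log2 fold change -1.11 ± 0.10 SE, adjusted p = 3.9e-12). mt-Nd1 (7393 against 14895 CPM), mt-Nd2 (2322 against 5629 CPM) and mt-Nd4 (6003 against 10890.4 CPM), subunits of complex I, fell as well. They took 2.17 to 2.49% of all counts at D14 and 4.18 to 4.83% at D7. In young marrow the shares were 2.37 to 3.09% and 3.11 to 3.91%, and 5 of the 8 transcripts were called for a difference between marrow ages. The mitochondrial share of counts is also a usual gauge of RNA and cell quality; its part in the other results was not tested. With mitochondrial and ribosomal protein genes left out before scaling, 1495 genes were called, 1484 of them among the 1540.

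Stress genes moved both ways, more of them down. Of 22 genes of the unfolded protein response and stress 9 fell and 2 rose (median -0.20). Atf4, a factor of the integrated stress response, fell from 510.1 to 273 CPM and the chaperone Calr from 803 to 544. Hspa1b was at 36.3, 39 and 35.7 CPM at D14 and 192, 263, 266 and 246 CPM at D7. It and its near-identical neighbour Hspa1a (121 against 241 CPM) cannot be separated with confidence. Xbp1 (145 against 96.3 CPM) and Sel1l (123 against 85.2 CPM) of the same list rose. The count of falls was 4 without D14 library 3. Genes linked to tissue dissociation and immediate early response were split: of 29, 7 rose, led by Klf2 (459.9 against 160.1 CPM) and Dusp1 (1778 against 1136 CPM), and 10 fell, including Ier3 (417 against 833 CPM) and Gadd45b (49.5 against 104 CPM); without D14 library 3, 5 fell. Of 18 genes of growth arrest and senescence 2 rose and 5 fell, where 7.02% of all genes rose and 7.39% fell. The falls included the cyclin-dependent kinase inhibitors Cdkn1a (291 against 558 CPM) and Cdkn1b (41.5 against 80.0 CPM). Without D14 library 3, 3 fell.

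More chemokines and cytokines of inflammation fell than rose. Of 31 tested, 12 fell and 3 rose (median -0.28), where 7.39% of all genes fell and 7.02% rose. Tnf was at 86.9, 82.1 and 81.7 CPM at D14 and 192, 226, 173 and 176 CPM at D7. The D14 libraries lay close together and below all D7 libraries (log2 fold change -1.20 ± 0.14 SE, adjusted p = 2.4e-09). Ccl4, which draws T cells and monocytes, was at 126, 100.7 and 132 CPM at D14 and 252, 231, 265 and 278 CPM at D7, again without overlap (log2 fold change -1.10 ± 0.13 SE, adjusted p = 5.2e-09). Ccl3 (75.8 against 131 CPM) and Ccl17 (607 against 1148 CPM), which attract leukocytes, fell too. The 3 that rose were Ccl9 (1150.3 against 556 CPM), Cxcl14 (39.5 against 16.4 CPM) and Ccl8. Ccl8, a monocyte attractant made by tissue macrophages, showed the largest rise among the genes named by size, at 81.1, 35.8 and 79.4 CPM at D14 and 25, 6.15, 7.07 and 11.5 CPM at D7 (log2 fold change 2.64 ± 0.31 SE, adjusted p = 1.4e-08). Without D14 library 2, 7 of the list fell.

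Inflammatory signalling was split between regulators. Of 29 tested genes 3 rose and 5 fell (median -0.07), the falls numbering 3 without D14 library 3 or without D7 library 1. Over all genes 7.02% rose and 7.39% fell (median -0.02), so as a list these genes stood close to all genes. Nfkbia, the inhibitor that NF-kappaB itself induces, was at 2651, 3204 and 2734 CPM at D14 and 7064, 7281, 6904 and 7084 CPM at D7. The D7 libraries lay close together and far above the D14 libraries (log2 fold change -1.31 ± 0.12 SE, adjusted p = 5.9e-11). Nfkb1, which encodes the p50 subunit, was at 812, 854 and 850.0 CPM at D14 and 509, 523, 535 and 493 CPM at D7, the opposite order (log2 fold change 0.70 ± 0.11 SE, adjusted p = 4.7e-06). Tnip3, a brake on the same pathway, fell (95.6 against 174 CPM), and the inflammatory caspase Casp4 rose (117 against 68.4 CPM).

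Antigen presentation moved apart by class. Of 14 MHC class II genes 5 fell (median -0.30) and 0 rose (0 at an unadjusted p below 0.05, 0 by DESeq2, 0 by limma voom), the falls including H2-Eb1 (1909.6 against 2697 CPM) and H2-Ab1 (3139 against 4201 CPM), the latter with an adjusted p of 0.05 without D14 library 3. The number of falls was 2 without D14 library 3. Of 14 class I genes 3 rose and 0 fell (0 at an unadjusted p below 0.05, 0 by DESeq2, 0 by limma voom), the rises led by H2-K1 at 1991, 1899 and 1889.8 CPM at D14 and 1239, 1224, 1194 and 1205 CPM at D7 (log2 fold change 0.66 ± 0.09 SE, adjusted p = 3.5e-07). MHC genes are near-identical in part, so single members are uncertain. Of 23 genes of alternative activation 3 rose and 6 fell, where 7.02% of all genes rose and 7.39% fell. Retnla, a secreted protein induced by IL-4, rose (73.6 against 22.3 CPM), while the lectin Mgl2, induced by the same cytokine, was at 217, 280.0 and 228 CPM at D14 and 463, 584, 558 and 594 CPM at D7 and fell without overlap (log2 fold change -1.19 ± 0.12 SE, adjusted p = 2.8e-11). Without D14 library 1 or D7 library 4, 3 of that list fell.

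Receptors and transcription factors changed in both directions. Of 28 cytokine and chemokine receptors 7 rose and 1 fell; the risers included Tgfbr1 (363 against 247 CPM), a receptor for TGF-beta, and numbered 4 without D14 library 2. Of 36 transcription factors of macrophages 5 rose and 7 fell, where 7.02% of all genes rose and 7.39% fell. Klf2, a factor that restrains inflammatory genes, was at 479.9, 420.1 and 479.6 CPM at D14 and 171, 134, 156 and 179 CPM at D7. Its D14 values were well above every D7 value (log2 fold change 1.53 ± 0.14 SE, adjusted p = 5.6e-12). Zeb2, which maintains macrophage identity (1108 against 729 CPM), and Mitf, of the lysosomal regulators (225 against 158 CPM), rose. Runx3 (91.6 against 177 CPM) and the helix-loop-helix inhibitor Id2 (767 against 1188 CPM) fell. The falls numbered 3 without D14 library 1 and 2 without D14 library 3. Of 31 genes of iron, haem and oxidative stress 6 rose, led by the peroxiredoxin Prdx1 (1801 against 1125 CPM). The 2 that fell, Sod1 (271 against 425 CPM) and Mt1 (391 against 553 CPM), made a share near the 7.39% of all genes. The rises numbered 3 without D14 library 3 or D7 library 4, and the call on Mt1 was lost without D14 library 3 (adjusted p = 0.063).

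The largest changes outside these groups concerned genes of varied roles. Among genes of at least 20 CPM in a group and without overlap, 656 rose and 629 fell, and 15 were named in each direction by fold change. Besides Ccl8, C4b, Slfn4, Oas3, Mmp13, Mmp12 and Retnla, the largest rises were in the peptide transporter Slc15a2 (24.8 against 4.96 CPM), Bank1, a B cell adaptor (53.6 against 10.3 CPM), Lsmem1, Tanc2, H2-M2, Gpr155, Ripor2 and the RNA editing enzyme Adarb1 (48.6 against 15.1 CPM). The largest falls were in Stpg3 and Kcnmb2. Stpg3 was at 12, 16.9 and 10.1 CPM at D14 and 175, 186, 163 and 152 CPM at D7 (log2 fold change -3.67 ± 0.33 SE, adjusted p = 1.3e-06), and Kcnmb2, a potassium channel subunit, at 59.8, 84.2 and 49.1 CPM at D14 and 768, 882, 757 and 792 CPM at D7 (log2 fold change -3.63 ± 0.46 SE, adjusted p = 3.7e-04). Both separated the days by several fold. Cdk8, a kinase of the Mediator complex, was at 123, 120.2 and 71.7 CPM at D14 and 405, 437, 423 and 369 CPM at D7 (log2 fold change -1.96 ± 0.16 SE, adjusted p = 4.3e-12). Also among the 15 were Cntnap5b, Alpk2, Cdh20, Galntl6, Nrg3 and Lipc, and the genes of vessel wall or lung endothelium Cyp4b1 (5.91 against 49.3 CPM), Tmem100 (14.3 against 58.8 CPM), Ednrb (6.58 against 24 CPM) and Edn1 (6.72 against 22.3 CPM). Among the genes with values here that kept their call with any library left out, thinning of the aged libraries ended the calls on Edn1, Siglecf, C3ar1, Fcgr4, Casp4, Tgfbr1, Xbp1 and Pecam1 (adjusted p = 0.067 to 0.22), and left Cdh20, Lipc, Ednrb, Pax5 and Oas2 too low to be tested.

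Markers of endothelium moved with the day. Of 11 tested endothelial genes 7 fell (median -1.27) and 0 rose (0 at an unadjusted p below 0.05, 0 by DESeq2, 0 by limma voom). Their summed level was 207 to 227 CPM at D14 and 444 to 513 CPM at D7, counted over library totals. Cldn5, a tight junction protein of vessels, was at 30.2, 26.4 and 26.3 CPM at D14 and 108, 69.9, 55.7 and 104 CPM at D7, with no overlap (log2 fold change -1.60 ± 0.20 SE, adjusted p = 1.8e-08). Kdr, a VEGF receptor (42.8 against 106 CPM), Cdh5, the cadherin of vessel walls (29.2 against 72.1 CPM), and Pecam1 (52 against 93.3 CPM) fell with it. In young marrow the sum went the other way, 254 to 314 CPM at D14 and 167 to 198 CPM at D7, and 7 of the 11 were called for a difference between marrow ages. The part of endothelial RNA in the other falls was not tested.

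Markers of other cells moved in both directions. The summed level of 10 B cell markers was 168 to 191 CPM at D14 and 66 to 94.6 CPM at D7, and 5 of 9 tested rose (median 1.18), a count of 3 without D14 library 3, D7 library 2 or D7 library 4. Within that list Ebf1 (68.2 against 29.2 CPM) and Pax5 (19.8 against 5.29 CPM) rose, while Cd79a, a defining B cell gene, was at 0.605 to 3.23 CPM at D14 and 0 to 2.03 CPM at D7. Of 16 neutrophil markers 5 rose and 3 fell, with summed levels of 3519 to 3612 and 2758 to 2948 CPM; the rises numbered 2 without D14 library 2 or D7 library 4, and 3 without D14 library 3 or D7 library 2, and the falls 1 without any 1 of the D14 libraries or without D7 library 4. Of 13 dendritic cell markers 3 fell and 0 rose (0 at an unadjusted p below 0.05, 0 by DESeq2, 0 by limma voom), and their sum was 969 to 1039 CPM at D14 and 1463 to 1699 at D7. Globin genes fell in the red cell list (Hba-a1 67.9 against 180.2 CPM), whose sum was 281 to 657 CPM at D14 and 865 to 1141 at D7. Summed T cell markers were 36.9 to 78.2 CPM at D14 and 59.8 to 80.9 at D7, and by edgeR 0 of 9 tested were called, 0 at an unadjusted p below 0.05, 0 by DESeq2 and 1 by limma voom. After thinning, the rises numbered 1 for B cell and 1 for neutrophil markers, and the falls 4 for endothelial markers. The part of these cells' RNA in the results was not tested.

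**Figure D4:**
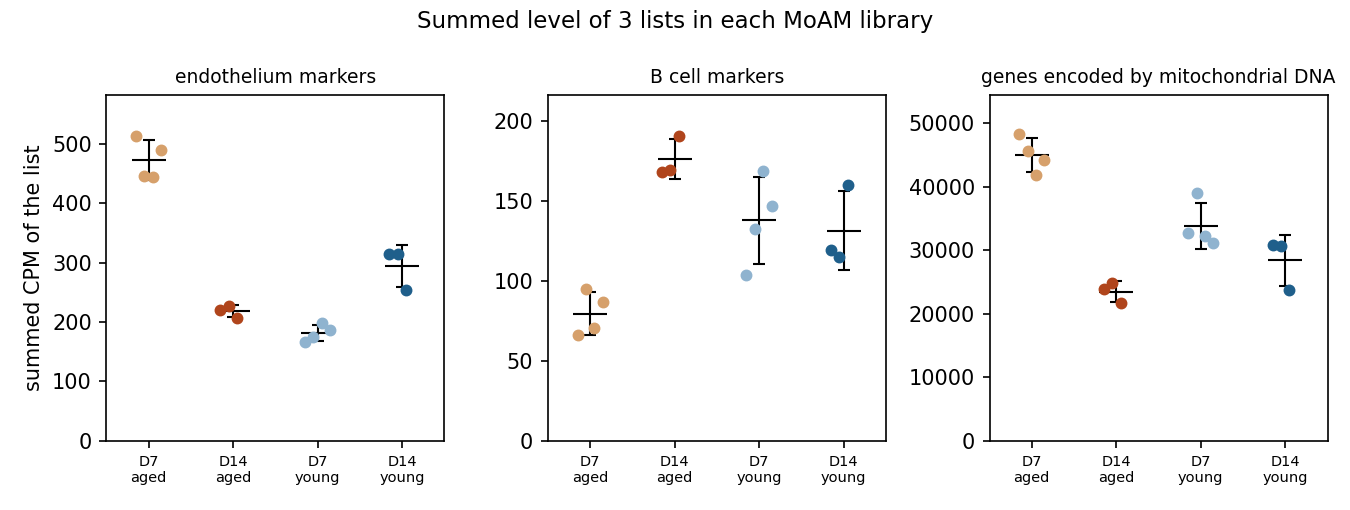
Summed CPM of the endothelial markers, the B cell markers and the genes encoded by mitochondrial DNA in each MoAM library, on linear axes from 0, with points for libraries and black marks for the mean with its SD. In aged marrow endothelial and mitochondrial sums are lower at D14 than at D7 in every library and B cell sums higher, and in young marrow the endothelial sum is higher at D14.

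The change from D7 to D14 differed between marrow ages in 594 of 10690 genes (5.56%), by the test of the difference itself, 322 with a more positive change in aged marrow and 272 with a more negative one. The genes with the smallest p were Ly6c1, Ly6a, Nfkb1, Spag9, Cyp4b1, Cldn5, Bach2, Sik3, Cav1 and Kdr. Cyp4b1, Cldn5, Cav1, Kdr, Ly6c1 and Ly6a are expressed by lung endothelium, whose marker sum moved in opposite directions in the 2 marrow ages as given above. Ly6c1 was at 97.2, 76.4 and 101.02 CPM at D14 and 284, 218, 266 and 248 CPM at D7 in aged marrow and 100.4, 119 and 99.9 CPM at D14 and 52.5, 51.1, 74.3 and 75.3 CPM at D7 in young marrow. Its order by day was reversed between them (difference aged minus young -2.15 ± 0.21 SE on the log2 scale, adjusted p = 5.5e-10), though Ly6 family genes are similar in sequence and uncertain one by one. Nfkb1 was at 482, 448 and 359 CPM at D14 and 652, 536, 799 and 769.5 CPM at D7 in young marrow, lower at D14, against the rise in aged marrow (difference aged minus young 1.41 ± 0.16 SE on the log2 scale, adjusted p = 1.9e-08). Zeb2 rose in aged marrow and had a log2 fold change of -0.46 in young marrow (difference aged minus young 1.06 ± 0.16 SE on the log2 scale, adjusted p = 3.7e-06). Tnf in young marrow was at 219, 184 and 156 CPM at D14 and 218, 141, 178 and 167 CPM at D7, with overlap, while it fell in aged marrow (difference aged minus young -1.25 ± 0.20 SE on the log2 scale, adjusted p = 1.6e-05). The cholesterol exporter Abca1 differed in the same sense as Nfkb1 (difference aged minus young 1.05 ± 0.18 SE on the log2 scale, adjusted p = 4.7e-05). Mmp12 had log2 fold changes of 1.90 in aged and 1.44 in young marrow, and its difference was not called (difference aged minus young 0.46 ± 0.17 SE on the log2 scale, adjusted p = 0.12). The number of differences was 362 without aged D14 library 3 and 377 without young D7 library 3.

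**Figure D5:**
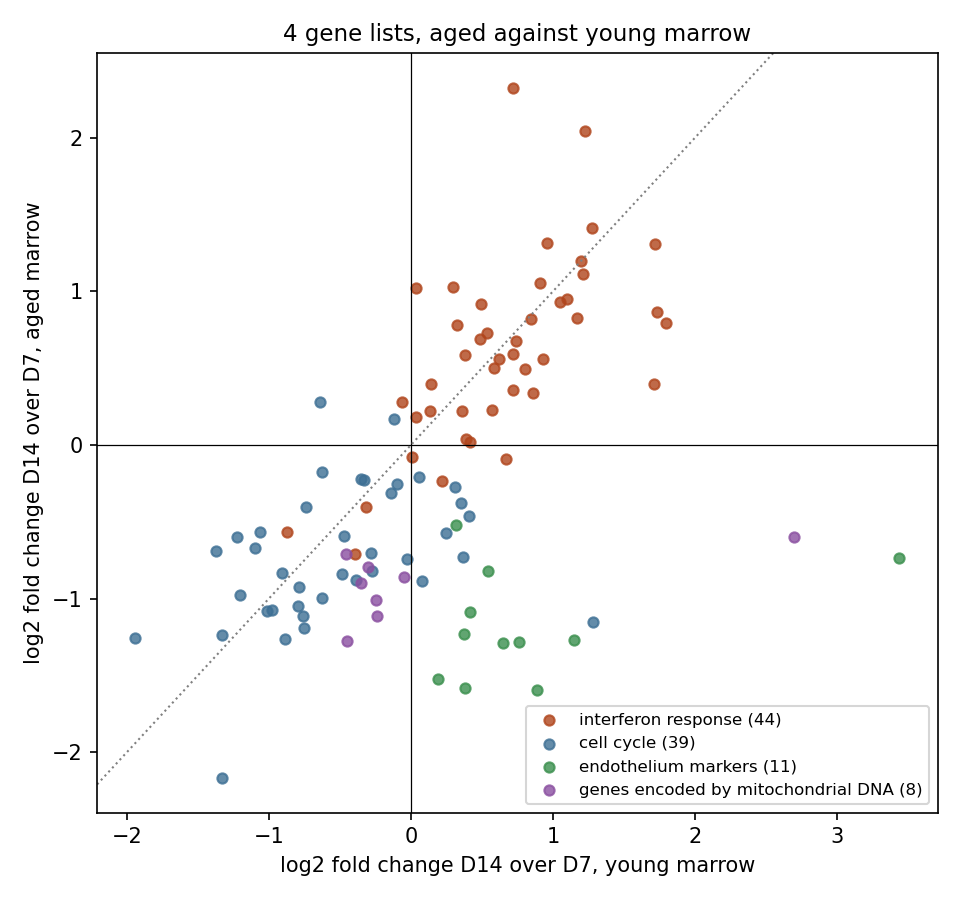
Log2 fold change D14 over D7 in aged marrow (vertical) against young marrow (horizontal) for the tested members of 4 lists, with 1 point per gene and a dotted line of equal change. Interferon genes (median 0.59 aged, 0.64 young) and cell cycle genes (-0.73, -0.63) lie to the same side in both, and endothelial markers (-1.27, 0.55) fall below the line.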

How the data were processed

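RNA of sorted mouse lung cells was measured by QuantSeq 3′ sequencing with molecular identifiers, per the labels' protocols. The authors deposited whole-number counts per gene symbol, used here as deposited; a deposited CPM table was not used. Per the submitters' processing notes, the tools were STAR 2.7.9a, edgeR 3.36.0, Trim Galore 0.6.6, featureCounts, FastQC and Picard, and the builds mm10 and GRCm39 are named with no role. Collapsing of identifiers, strand and multiply matching reads were not given in the sources used here. The table held 19910 genes, and 0 columns belonged to no sample.

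Columns were placed by position, as the report states. The 14 MoAM libraries were fitted together in R 4.3.3 with edgeR 4.0.16 (filterByExpr, TMM, robust quasi-likelihood F test, Benjamini-Hochberg over 10690 genes, called at 0.05), with 1 coefficient for each of 4 groups. The fitted contrasts were D14 against D7 in aged and in young marrow, and their difference. An SE is the log2 fold change over the root of its F value. Depth is given as totals per library, lowest at D7. On simulated counts for MoAM aged D14 against D7, 188 of 200 genes changed 2-fold were recovered. Beside these 188 stood 14 false calls, in a simulation of 10404 genes. Recovery of genes at low levels, or of smaller changes, was not tested separately. The recovered share is therefore not the power for every gene reported.

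The members and gene lists were chosen with earlier results of these data known. Named genes were the 15 largest changes in each direction among called genes with a mean of 20 CPM in a group and no overlap, up to 4 per list and direction by smallest p, a fixed panel, and 10 for the difference. Replicates of a group differed beyond sampling noise (chi-square per degree of freedom 1.92 to 8.03), so none was merged. Replicate numbers were not taken to pair samples. DESeq2 1.42.0, limma 3.58.1 (voom), other scaling and filters, single libraries left out, a replicate block, other fits and, chosen after seeing the data, thinned counts and a fit without mitochondrial and ribosomal protein genes were alternatives. Sequences came from RefSeq (GRCm38.p6). A few genes that the rule names are not reported here.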

Additional observations from a re-analysis of the deposited data

Results flagged for a closer look

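The change from D7 to D14 differed between aged and young marrow, by edgeR's test of the difference itself, in 46 of the 153 tested genes named here. Over all genes tested the share was 5.56%. Many of the 153 were named for their change in these data, 10 of them for this difference, so the 2 shares cannot be compared. Values below are aged minus young differences of the log2 fold change. Among genes of endothelium they were -1.81 for Cav1, -2.42 for Cdh5, -2.48 for Cldn5, -3.74 for Cyp4b1, -1.94 for Kdr, -1.80 for Ly6a, -2.15 for Ly6c1, -1.37 for Pecam1 and -2.42 for Tmem100, beside an endothelial marker sum that moved in opposite directions in aged and young marrow. Among mitochondrial transcripts they were -0.88 for mt-Cytb, -0.76 for mt-Nd1, -0.83 for mt-Nd2 and -0.81 for mt-Nd4. Among genes of inflammatory signalling and cytokines they were 0.87 for Casp4, 0.65 for Ccl17, -0.70 for Ccl3, 1.76 for Ccl8, -0.79 for Gdf15, -0.57 for Ier3, 0.46 for Il1b, 1.41 for Nfkb1, -0.52 for Nfkbia and -1.25 for Tnf. Genes also known from B cells gave 1.54 for Bach2, 2.44 for Bank1, 2.25 for Ebf1 and 2.33 for Pax5. Of the other genes, a more positive change in aged marrow was seen with 1.04 for Abca1, 2.01 for Adarb1, 1.49 for Lsmem1, 1.07 for Ripor2, 1.26 for Sik3, 2.57 for Slc15a2, 1.98 for Slfn4, 1.31 for Spag9 and 1.06 for Zeb2. A more negative change was seen with -0.78 for Cdk8, -0.84 for Cdkn1b, -0.68 for Gpnmb, -0.83 for Laptm5, -0.78 for Ly6c2, -0.64 for Mgl2, -0.58 for Psap, -1.06 for Sparc, -0.90 for Spp1 and -0.98 for Timp3. The report gives the levels behind Spp1, Nfkb1, Tnf and Ly6c1.

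Within the D7 libraries of aged marrow, 1 library stood apart from the other 3 in 9 of the 153 genes, where chance gives about 1 in 20. By TMM-scaled level these were Cxcl14 (23.5 CPM in library 4, 13.4 to 14.6 CPM in the others), Ebf1 (42.5 CPM in library 2, 22.9 to 25.6 CPM in the others), Fabp5 (419 CPM in library 4, 259 to 277 CPM in the others), Hilpda (881 CPM in library 4, 761 to 778 CPM in the others), Laptm5 (3536 CPM in library 4, 2816 to 2891 CPM in the others), Mitf (133 CPM in library 4, 164 to 169 CPM in the others), Retnla (35.5 CPM in library 1, 16.3 to 19 CPM in the others), Spp1 (2855 CPM in library 3, 3420.3 to 3479.7 CPM in the others) and Stmn1 (125 CPM in library 1, 90.1 to 92.6 CPM in the others). Library 4 was the one apart in 5 of them.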

How the results depend on the processing

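Counts below are all called, then higher, then lower. For D14 against D7 in aged marrow (1540, 750, 790), DESeq2, upper-quartile scaling and the 2 other filters stayed within 1.5 times, limma voom called 1202 lower, and the 7 libraries alone called 2316 with 1199 lower. Leaving out 1 library gave 949 to 1388, 489 to 685 and 435 to 703. Thinning all 14 libraries to the smallest total gave 497, 214 and 283, and thinning the aged libraries to theirs 728, 313 and 415 (fewer counts in every library thinned, with no test of D7 depth alone). A fit of all 44 libraries called 27, 12 and 15. Columns taken by their printed headers, which compare other columns, called 3867, 1790 and 2077. For young marrow (1407, 728, 679), leaving out 1 library gave 991 to 1476, 484 to 777 and 507 to 699, limma voom called 481 higher, thinning gave 483, 223 and 260, and all 44 libraries gave 25, 14 and 11. For the difference (594, 322, 272), leaving out 1 library gave 362 to 662, 233 to 373 and 129 to 289, thinning of all 14 gave 131, 74 and 57, thinning of the aged libraries 343, 188 and 155, and edgeR on all 44 libraries 1, 1 and 0 (161 lower at an unadjusted p below 0.05). The cause of these shifts was otherwise not tested.

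Of the 192 called genes named by rule, 17 kept their call under every alternative run, and 0 changed sign. These runs included the fit of all 44 libraries, which called only 27 genes in all. The number 17 therefore reflects that fit as well as the stability of each gene. Among genes not called, Gpnmb turned from -0.04 to 0.013 with no filter, 0.0014 with all 44 libraries, 0.017 after thinning of all 14 and, with 1 library left out, -0.090 to 0.039 (0.028 without D14 library 2, 0.039 without D7 library 4). Tgfb1 turned from -0.04 to 0.018 with no filter and ran from -0.12 to 0.050 with 1 library left out (0.050 without D14 library 3), and Trem2 from -0.024 (without D7 library 1) to 0.12, against 0.03. Ccr2, Arg1 and Mrc1 were called by DESeq2 (adjusted p = 0.047, 0.044 and 0.031). The labels do not tie replicate numbers to animals or days. Deviations of same-numbered D14 and D7 aged libraries correlated at r = 0.028, 0.012 and 0.022. These values cannot exclude pairing, since unmatched numbers were not compared and sampling noise enters each deviation. With the replicate number as a replicate block, 1249, 626 and 623 genes were called in aged marrow, 1208, 634 and 574 in young marrow and 558, 306 and 252 for the difference. The 100-gene lists of AM and monocyte genes gave shares within counting error at 50 and 200 genes.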
